A study of Homo sapiens with 4 samples.

Results

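The receptor tyrosine kinases other than the ephrin receptors were examined by RNA sequencing in HT1080 cells lacking KDAC8. The members were the 43 genes of a list of these receptors, in 18 structural families, found by gene name among the 60675 gene rows of the deposited table, with 1 row each. HT1080 is an established human fibrosarcoma line, and KDAC8, a lysine deacetylase, is the product of HDAC8. All 4 libraries carry the KDAC8 knockout and form the only group. No unmodified HT1080 library was analysed here, so the effect of the knockout cannot be read from these values. Nothing in the labels tells if the replicates came from separate cultures or if the knockout is 1 clone. Every p-value below therefore rests on these samples alone, and the spread between them may be technical.

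A receptor tyrosine kinase is a membrane protein that binds a growth factor or matrix ligand outside the cell. Once paired, such receptors phosphorylate tyrosines on each other's tails. Adaptor proteins dock on these tyrosines and pass the signal to RAS, PI3-kinase and phospholipase C. PDGF, FGF and IGF receptors are well known in fibroblasts, while KDR, TIE1 and TEK are textbook endothelial receptors, KIT marks mast cells and melanocytes, and CSF1R and FLT3 mark blood lineages. A few members (ERBB3, PTK7 and RYK) have kinase domains with little or no activity and act through partners.

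Library totals were 39454167 to 45828772 counts. HDAC8 itself had 80, 89, 95 and 107 counts in replicates 1 to 4, a whole-gene value that leaves the targeted exons unchecked. Mesenchymal markers were high in summed CPM (10283 to 10894 CPM over 9 genes, 6 detected), with VIM, COL6A3 and CD44 leading and COL1A2 and COL3A1 near 0. The epithelial genes EPCAM, CDH1 and KRT5 had 0 counts in all 4 libraries, although KRT8 and KRT18 were among the 3 of 6 epithelial markers detected. Levels are given as CPM (counts scaled by effective library size), and levels of different genes are compared only as CPM per kilobase of annotated exon. In these bulk libraries, fewer expressing cells and less RNA per cell cannot be told apart.

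The receptor RNA of the KDAC8 knockout cells was dominated by AXL, a receptor of the TAM family that binds GAS6. AXL had 1196, 1285, 1377 and 1229 CPM in replicates 1 to 4. Per kilobase of exon it averaged 246.7 ± 15.4 CPM (SD, n = 4), and 99.1% of the detected protein-coding genes lay below it. It held 60.0 ± 1.63% of the summed CPM per kilobase of the 43 members. MET, DDR2, EGFR, TIE1 and RYK came next in CPM per kilobase, and with AXL these 6 genes held 91.6% of the sum. The same 6 genes led when levels were divided by the longest annotated transcript or the longest coding length, and AXL was first each time, with shares of 55.4% and 48.3%. The sum over all members was 396, 406, 435 and 406 CPM per kilobase in replicates 1 to 4, a range of 1.10 times.

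**Figure D1:**
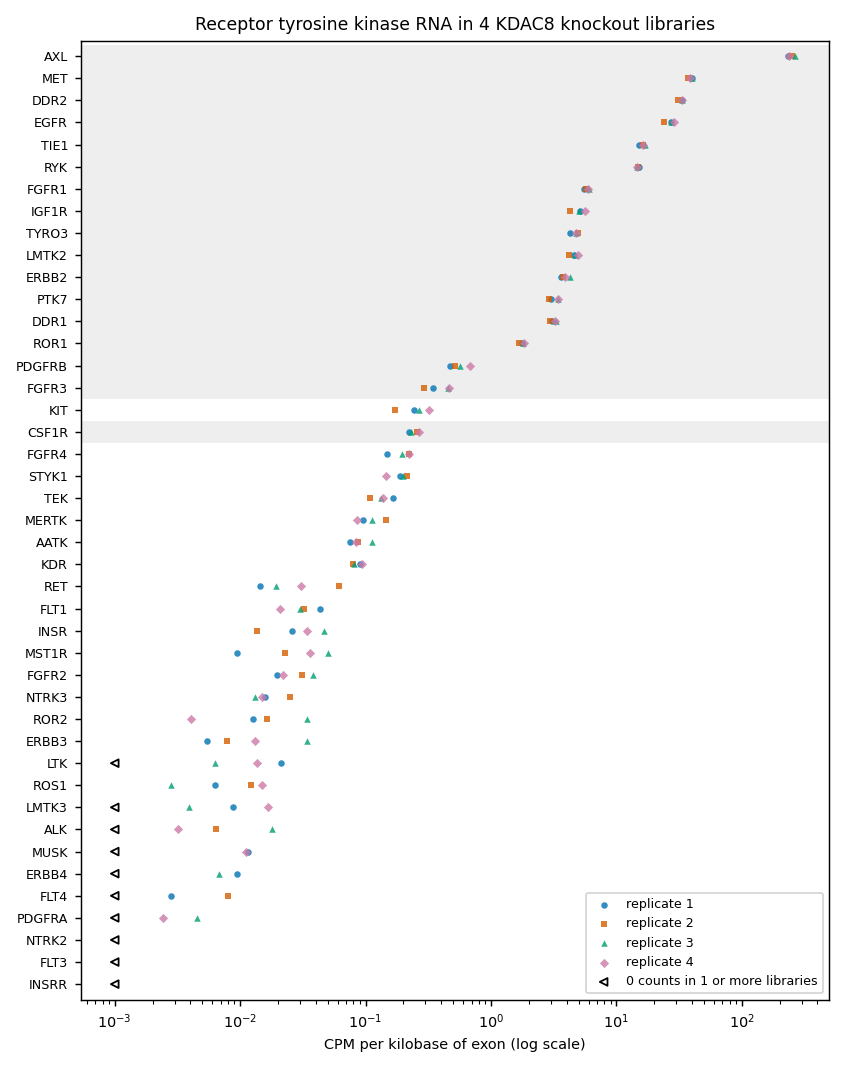
CPM per kilobase of exon (log scale) of each of the 43 receptors in the 4 KDAC8 knockout libraries, 1 point per library. Grey bands mark the 17 genes at 1 CPM or more in all libraries, and open triangles mark genes with 0 counts in at least 1 library. AXL stands apart at the top, at 246.7 CPM per kilobase on average.

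**Figure D2:**
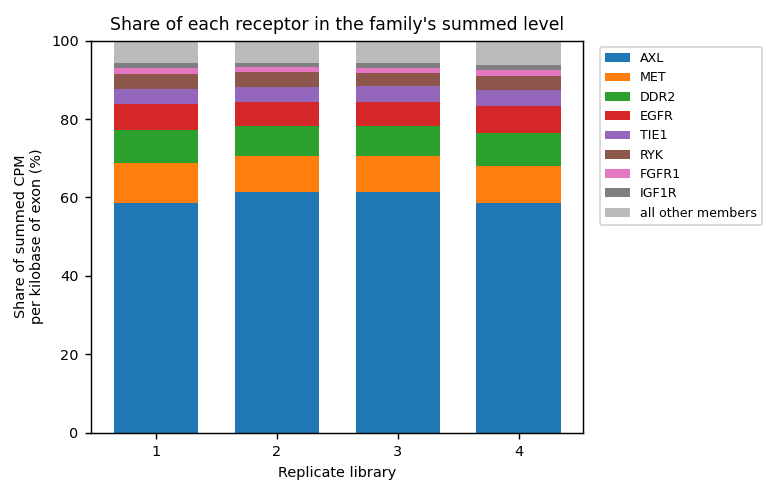
Share (%) of each receptor in the summed CPM per kilobase of exon, 1 stacked bar per knockout library. AXL takes between 58.5% and 61.4% in every library.

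Of the 43 members, 17 (39.5%) were detected, that is, at 1 CPM or more in all 4 libraries, beside 58.7% of protein-coding rows and 21.4% of all rows of the table. The median over all members was 0.110 CPM per kilobase, beside 1.41 over all protein-coding rows. Among the other 26, 10 had a mean of 10 or more counts, 16 had fewer, and 3 (INSRR, NTRK2 and FLT3) had 0 counts in every library. A count of 0 over the 4 libraries allows up to 0.0176 CPM (3 counts, counting error only). CSF1R was the detected gene nearest to the threshold, at 1.14 to 1.37 CPM. KIT lay just outside it, at 1.36, 0.950, 1.48 and 1.77 CPM, with replicate 2 alone below 1 CPM.

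Promoter CpG content varied widely among the receptors, and both high and undetected receptors had few or many CpGs before the most upstream start. The 250 bases before the most upstream annotated start are shown for 5 genes chosen as contrasts, 3 high receptors with few CpGs and 2 undetected ones with many. The sequences are from RefSeq (GRCh38.p14), 5′ to 3′ on the gene's strand, with each CpG in capitals. AXL (chr19:41218973-41219222, forward strand), DDR2 (chr1:162630613-162630862, forward strand) and TIE1 (chr1:43300732-43300981, forward strand) were 3 of the 5 highest receptors. INSR (chr19:7294415-7294664, reverse strand) and MERTK (chr2:111898357-111898606, forward strand) were not detected.
AXL: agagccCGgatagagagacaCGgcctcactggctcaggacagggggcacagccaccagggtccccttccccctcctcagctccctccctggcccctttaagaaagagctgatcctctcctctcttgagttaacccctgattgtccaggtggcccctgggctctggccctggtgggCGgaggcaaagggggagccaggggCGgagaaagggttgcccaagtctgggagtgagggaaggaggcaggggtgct
DDR2: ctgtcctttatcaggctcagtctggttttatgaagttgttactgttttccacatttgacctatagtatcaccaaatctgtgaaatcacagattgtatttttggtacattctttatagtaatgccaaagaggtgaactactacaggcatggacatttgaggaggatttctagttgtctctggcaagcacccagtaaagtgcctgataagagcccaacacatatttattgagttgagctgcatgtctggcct
TIE1: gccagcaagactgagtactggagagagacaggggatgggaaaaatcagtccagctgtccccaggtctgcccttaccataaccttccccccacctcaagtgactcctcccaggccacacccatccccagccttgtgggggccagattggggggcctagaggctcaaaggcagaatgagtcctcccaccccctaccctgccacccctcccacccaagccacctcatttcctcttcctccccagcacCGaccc
INSR: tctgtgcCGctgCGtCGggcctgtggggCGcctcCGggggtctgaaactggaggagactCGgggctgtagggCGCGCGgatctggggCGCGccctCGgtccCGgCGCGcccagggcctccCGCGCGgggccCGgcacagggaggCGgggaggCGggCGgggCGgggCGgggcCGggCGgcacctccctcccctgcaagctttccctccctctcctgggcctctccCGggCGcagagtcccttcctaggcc
MERTK: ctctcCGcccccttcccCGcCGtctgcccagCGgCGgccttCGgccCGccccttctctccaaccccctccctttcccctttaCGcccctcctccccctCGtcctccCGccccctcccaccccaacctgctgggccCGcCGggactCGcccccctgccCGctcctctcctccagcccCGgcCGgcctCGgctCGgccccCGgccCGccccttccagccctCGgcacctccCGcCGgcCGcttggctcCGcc

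AXL held 4 CpGs in this window, DDR2 0 and TIE1 1. INSR held 28 and MERTK 25, although INSR averaged 0.0300 ± 0.0138 CPM per kilobase and AXL 2291-fold more than MERTK. Other members went the opposite way: MET, EGFR and RYK, also among the 6 highest, held 24, 25 and 34 CpGs, and the undetected AATK, MUSK and ROS1 held 3 each. Over the 38 members with a promoter entry, the 16 detected genes had a median of 23.5 CpGs (0 to 48) and the 22 genes not detected a median of 21.5 (3 to 42), beside 17 over 14896 protein-coding promoters. Fewer than 10 CpGs were found in 37.5% of the detected members, 31.8% of the members not detected and 30.9% of all protein-coding promoters. The ranges of detected and undetected receptors overlapped almost fully. The listed starts differ from the annotation used for exon lengths. For AATK, DDR1, LMTK3, NTRK2 and TYRO3 the whole window lies inside the gene as annotated there. Of the printed windows, those of MERTK (annotated start 111898479) and AXL (41219203) run past the annotated start. Those of DDR2 (162631373), TIE1 (43300993) and INSR (7294034, reverse strand) stop short of it. AXL has a second listed start and DDR2 has 3 starts, with 4 to 13 and 0 to 3 CpGs. EGFR has 2 starts with 1 to 25 CpGs, and FGFR2 has 5 with 3 to 42. TYRO3 has 2 starts with 8 to 39 CpGs, and DDR1 has 8 with 2 to 30. MET, RYK, TIE1, INSR and MERTK have 1 listed start each. The start used in these cells was not measured, so for genes with several starts the count depends on the one taken. The letters TGANTCA (N for any base) read the same on both strands and include those of AP-1 sites, but are not limited to them. They were found before CSF1R, ERBB2 and TYRO3 among the detected members and before PDGFRA among the others, beside 5.01% of all promoters.

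**Figure D3:**
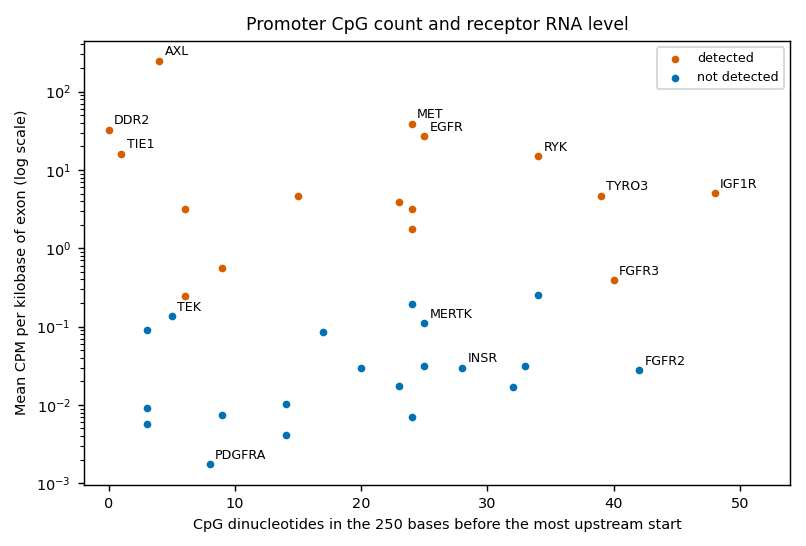
Mean CPM per kilobase of exon (log scale) against the number of CpGs in the 250 bases before the most upstream start, 1 point per receptor with a promoter entry and at least 1 count. DDR2, TIE1 and AXL combine 0, 1 and 4 CpGs with high levels, MET, EGFR and RYK combine 24, 25 and 34 with high levels, and low levels occur from 3 CpGs (AATK, MUSK, ROS1) to 42 (FGFR2).

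In the TAM family, AXL (chromosome 19, 41219203 to 41261766, GRCh38) stood far above its paralogs. The bridging ligands of the family are GAS6 and PROS1, which its members do not all share. TYRO3 had 46.9, 53.9, 52.1 and 52.6 CPM, and MERTK, the receptor of phagocytes, had 18, 29, 24 and 17 counts. Per kilobase AXL was 52.6-fold higher than TYRO3 (log2 ratio 5.72 ± 0.08) and TYRO3 43.6-fold higher than MERTK (log2 ratio 5.44 ± 0.31). The order AXL, TYRO3, MERTK held in all 4 libraries. GAS6 RNA was abundant, at 242.5 ± 11.6 CPM, and PROS1 stood at 6.32 ± 0.227 CPM.

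In the discoidin domain family, the collagen receptor DDR2 had 358, 335, 355 and 361 CPM. DDR1, typical of epithelia, had 28.0, 26.9, 30.3 and 29.4 CPM. Per kilobase the log2 ratio of DDR1 to DDR2 was -3.39 ± 0.05, which is 10.4-fold lower. This ratio had the smallest SD of the 15 pairs compared. DDR2 binds fibrillar collagens, of which only COL1A1, COL1A2 and COL3A1, from the mesenchymal marker list, were looked up here. COL1A1 stood at 2.17 ± 0.219 CPM, COL1A2 at 0.0769 ± 0.0454 CPM and COL3A1 at 0.0121 ± 0.0140 CPM.

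MET, the receptor of hepatocyte growth factor, had 284, 263, 279 and 270.0 CPM. Its ligand gene HGF had 1 count in the 4 libraries together, in replicate 1. FURIN, the protease that cleaves the MET and insulin receptor precursors, stood at 117 ± 4.36 CPM. The paralog MST1R had 2, 5, 12 and 8 counts, and its ligand gene MST1 was at 3.98 ± 0.394 CPM.

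Among the ErbB receptors, EGFR and ERBB2 were detected and ERBB3 and ERBB4 were not. EGFR had 338, 302, 341 and 358 CPM, and replicate 2 was the low library. ERBB2, the co-receptor with no ligand of its own, had 37.6, 38.4, 44.1 and 40.2 CPM. Per kilobase EGFR was 6.89-fold higher than ERBB2 (log2 ratio 2.78 ± 0.11), and higher in all 4 libraries. ERBB2 shares 571 exonic bases with MIEN1 on the opposite strand (14.1 ± 2.67 CPM), and reads there cannot be assigned without strand. ERBB3, a neuregulin receptor, had 2, 3, 14 and 5 counts, with 14 in replicate 3, and ERBB4 had 5, 0, 4 and 0. The EGFR ligands HBEGF (53.3 ± 1.87 CPM) and TGFA (19.6 ± 0.968 CPM) were present and EGF was low (1.54 ± 0.251 CPM). AREG (0.111 ± 0.0350 CPM), BTC (0.215 ± 0.0831 CPM), EREG (0.0178 ± 0.0227 CPM) and EPGN (0.00552 ± 0.0110 CPM) were not detected. NRG1, a ligand for the scarce ERBB3 and ERBB4, stood at 17.4 ± 0.362 CPM.

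The insulin receptor gene INSR was close to the counting limit beside IGF1R. INSR had 11, 6, 22 and 15 counts, 54 in all (exact Poisson 95% interval 40.6 to 70.5), or 0.314 ± 0.144 CPM. IGF1R had 71.2, 59.6, 70.2 and 78.8 CPM, lowest in replicate 2 and highest in replicate 4. Per kilobase the log2 ratio of INSR to IGF1R was -7.51 ± 0.63, which is 183-fold lower, and INSR was the lower gene in 4 of 4 libraries. Of the ligands, INS and IGF1 had 0 counts in all libraries and IGF2 stood at 0.0531 ± 0.0301 CPM. The docking proteins of these receptors were present, with IRS1 at 107 ± 7.41 CPM and IRS2 at 46.2 ± 1.94 CPM.

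The PDGF receptor family was sparse. PDGFRB had 3.36, 3.66, 4.06 and 4.83 CPM. PDGFRA, the receptor for PDGF-AA, had 0, 0, 2 and 1 counts. PDGFC (55.1 ± 1.57 CPM) and PDGFA (22.3 ± 0.702 CPM), ligands of PDGFRA, were expressed, whereas PDGFB had 1 count in all and PDGFD 0. KIT and CSF1R were at the edge of detection and did not differ beyond their spread per kilobase (log2 ratio 0.00 ± 0.40, KIT higher in 3 of 4 libraries). Their ligand genes were higher than the receptors in CPM per kilobase, KITLG at 3.12 ± 0.163 against 0.250 ± 0.0614 for KIT, and CSF1 at 10.8 ± 0.816 against 0.244 ± 0.0215 for CSF1R. The other CSF1R ligand, IL34, had 0.0758 ± 0.0260 CPM, and the FLT3 ligand gene FLT3LG had 3.40 ± 0.172 CPM beside 0 counts of FLT3.

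The VEGF receptors were not detected, while 4 of their 5 listed ligands and both neuropilin co-receptors were. FLT1 had 22, 17, 17 and 11 counts, KDR 24, 22, 24 and 26, and FLT4, the lymphatic receptor, 1, 3, 0 and 0. Per kilobase FLT1 was lower than KDR in 4 of 4 libraries (log2 ratio -1.50 ± 0.48). VEGFA had 259 ± 18.9 CPM, VEGFC 56.1 ± 1.64 CPM, PGF 42.9 ± 5.96 CPM and VEGFB 37.6 ± 4.03 CPM. VEGFD, a ligand of KDR and FLT4, was not detected (0.0295 ± 0.0119 CPM). NRP1 was the highest of the 10 co-receptor genes, at 855, 710.4, 817 and 860.2 CPM, and NRP2 followed at 131 ± 16.7 CPM.

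TIE1 was detected and its partner TEK was not. TIE1 (chromosome 1, 43300993 to 43323108, GRCh38) is an orphan receptor of blood and lymphatic endothelium that modulates TEK, the angiopoietin receptor. It had 101, 109, 114 and 109 CPM, while TEK had 32, 22, 29 and 28 counts. Per kilobase TIE1 was 120.1-fold higher than TEK (log2 ratio 6.91 ± 0.30). Of the 4 endothelial markers, ENG, which mesenchymal cells also make, was detected at 102 ± 6.04 CPM, and the defining genes PECAM1 (0.0297 ± 0.0234 CPM), CDH5 (0.0240 ± 0.0336 CPM) and VWF (0.0593 ± 0.0737 CPM) were near 0. The summed level of the 4 markers, set by ENG, ranged over 96.0 to 109 CPM. On the same stretch of chromosome 1, C1orf210 upstream of TIE1 was not detected (0.0300 ± 0.0314 CPM), while CDC20 downstream of it stood at 159 ± 13.3 CPM. No other gene of the annotation used shares exons with TIE1, and its deposited value was not whole in 4 of 4 libraries. The angiopoietin genes ANGPT1 (0.825 ± 0.156 CPM) and ANGPT2 (0.519, 0.522, 0.684 and 2.22 CPM) were under the detection threshold in at least 3 libraries each.

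Of the FGF receptors, FGFR1 carried nearly all of the RNA. FGFR1 had 76.8, 79.4, 84.2 and 82.4 CPM, FGFR3 1.68, 1.42, 2.21 and 2.22 CPM, and FGFR4, the receptor for FGF19, 0.717, 1.07, 0.949 and 1.06 CPM. FGFR2, typical of epithelia, had 6, 10, 13 and 7 counts. Per kilobase FGFR1 was 15.3-fold higher than FGFR3 and 30.0-fold higher than FGFR4, in all 4 libraries. FGF2 (44.6 ± 3.00 CPM) and FGF5 (30.4 ± 1.14 CPM) were the highest of the 9 FGF genes listed, FGF1 stood at 4.25 ± 0.597 CPM and FGF7 at 2.08 ± 0.487 CPM. The co-receptor gene KLB was at 1.99 ± 0.280 CPM and KL had 0 counts.

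Receptors tied to WNT signalling were expressed in part. RYK, a WNT co-receptor, had 122, 120.0, 118 and 118 CPM, and PTK7, a planar polarity receptor, had 26.9, 26.0, 30.6 and 31.0 CPM. ROR1 had 11.9, 11.2, 12.1 and 12.3 CPM, while its paralog ROR2 had 3, 4, 9 and 1 counts. WNT5A, a ligand of the ROR receptors, had 83.7 ± 9.67 CPM. MUSK, the receptor of the nerve-muscle synapse, had 2, 0, 0 and 2 counts, although its co-receptor LRP4 (20.1 ± 1.96 CPM) and its ligand AGRN (498 ± 32.1 CPM), also a matrix proteoglycan, were expressed.

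Of the remaining members, only LMTK2 was detected. LMTK2, a kinase of the lemur tail family with a role in membrane traffic, had 41.8, 38.0, 43.1 and 45.1 CPM. Its paralog AATK had 19, 23, 32 and 22 counts, and the log2 ratio of AATK to LMTK2 per kilobase was -5.69 ± 0.26. AATK shares 138 exonic bases with BAIAP2 on the opposite strand (37.6 ± 2.04 CPM), and since strand use in counting is not given, its few counts are uncertain. LMTK3 had 2, 0, 1 and 4 counts. STYK1 had 26, 31, 31 and 21 counts. The neurotrophin receptor NTRK3 had 17, 28, 16 and 17 counts, and its ligand gene NTF3 had 0. BDNF, the ligand of NTRK2, stood at 16.7 ± 1.34 CPM beside 0 counts of NTRK2. RET, the receptor for GDNF family ligands, had 4, 18, 6 and 9 counts, highest in replicate 2. GDNF was at 3.16 ± 0.737 CPM and PSPN at 3.49 ± 0.458 CPM, while the co-receptors GFRA2 and GFRA4 had 0 counts. The receptors LTK (3, 0, 1 and 2 counts), ALK (0, 2, 6 and 1) and ROS1 (2, 4, 1 and 5) were at the counting limit.

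Several receptor genes are neighbours on a chromosome. TYRO3 and LTK lie 43.8 kb apart on chromosome 15, with TYRO3 at 51.4 ± 3.08 CPM and LTK at 0.0359 ± 0.0320 CPM. PDGFRA, KIT and KDR follow each other on chromosome 4, with gaps of 359.7 and 338 kb, and none of the 3 was detected. CSF1R and PDGFRB are 464 bases apart on chromosome 5, and both were low, at 1.26 ± 0.111 and 3.98 ± 0.634 CPM. FLT3 and FLT1 on chromosome 13 were not detected.

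In all, 15 pairs within families were compared, and in 14 the sign of the log2 ratio was the same in all 4 libraries. For those 14 an exact permutation test by sign flips (two-sided) gave p = 0.125, the smallest that 4 libraries allow, or 0.134 after Benjamini-Hochberg adjustment over the 15 pairs, so the test cannot reach 0.05. The ratios depend on annotated lengths. With the longest transcript in place of all exons, the log2 ratio was 2.07 for EGFR to ERBB2, -0.79 for FLT1 to KDR, 4.96 for FGFR1 to FGFR3, 7.68 for TIE1 to TEK and -2.33 for DDR1 to DDR2. With the longest coding length it was -0.54 for FLT1 to KDR, 5.37 for FGFR1 to FGFR3, 6.34 for FGFR1 to FGFR4, 4.62 for AXL to TYRO3 and 6.83 for TYRO3 to MERTK. These are the ratios that moved by over 1.5 times, and none changed direction. In the order of levels per kilobase of exon, TIE1 and RYK overlapped between libraries (15.1 to 17.0 and 14.7 to 15.2 CPM per kilobase), as did FGFR1 and IGF1R, IGF1R, TYRO3 and LMTK2, LMTK2 and ERBB2, and PTK7 and DDR1. AXL, MET, DDR2 and EGFR each stood clear of the next by this length. By coding length MET, at 64.9 CPM per kilobase, had rank 5, below DDR2 (137), EGFR (92.3) and RYK (65.4), and by the longest transcript DDR2 (34.6) and EGFR (34.1) were nearly equal.

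**Figure D4:**
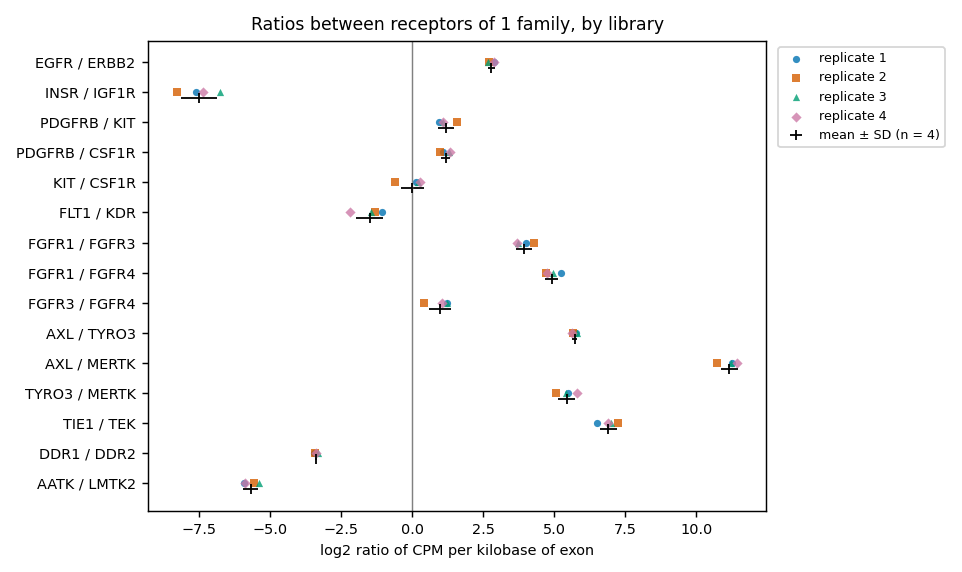
log2 ratios of CPM per kilobase of exon for the 15 within-family pairs with a mean of 10 or more counts in both genes, 1 point per knockout library, with mean and SD (n = 4) as black bars. AXL over MERTK and INSR over IGF1R are the most unequal pairs in the 2 directions, and KIT over CSF1R straddles 0.

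Most detected receptors differed between the knockout libraries by small factors. Enough counts for a chi-square test of homogeneity (10 on average) were present for 27 members, and 15 (55.6%) exceeded counting noise after Benjamini-Hochberg adjustment over all genes, beside 59.2% of the 16790 genes tested and 64.4% of the protein-coding ones. Of the 17 detected members 14 did so, beside 67.3% of all detected rows. With a range of 1.5 times or more required as well, 2 members, FGFR3 (1.56 times) and KIT (1.87 times), qualified, beside 12.0% of genes. The median range of the 17 detected members was 1.15 times, and the median SD of their log2 CPM was 0.09, beside 0.10 over 11566 detected protein-coding genes. AXL had the smallest adjusted p of the members (chi-square, 2.2e-137), with a range of 1.15 times. IGF1R had a wider range, 1.32 times (adjusted p = 5.4e-23), and PDGFRB 1.43 times (adjusted p = 0.0113). RYK showed no variation beyond counting noise (adjusted p = 0.294) and the narrowest range of the detected members, 1.04 times. When the common dispersion of all genes was added to counting noise, 0 members varied by the same chi-square test, and 0 had an unadjusted p under 0.05, beside 4.32% of genes called and 11.7% at that unadjusted p.

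The detected receptors were not all high or low in the same library. The lowest library was replicate 2 for 9 of the 17, replicate 1 for 7, replicate 4 for 1 and replicate 3 for 0. The highest was replicate 4 for 9, replicate 3 for 5, replicate 1 for 2 and replicate 2 for 1. Among detected protein-coding genes, replicates 1 to 4 were the lowest for 26.4%, 25.0%, 15.0% and 33.6%. They were the highest for 25.7%, 36.3%, 18.8% and 19.2%. For EGFR, DDR2, IGF1R, LMTK2, PTK7, ROR1 and FGFR3, replicate 2 was the low library and replicate 4 the high one. For AXL, TIE1, FGFR1 and ERBB2, replicate 1 was low and replicate 3 high.

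**Figure D5:**
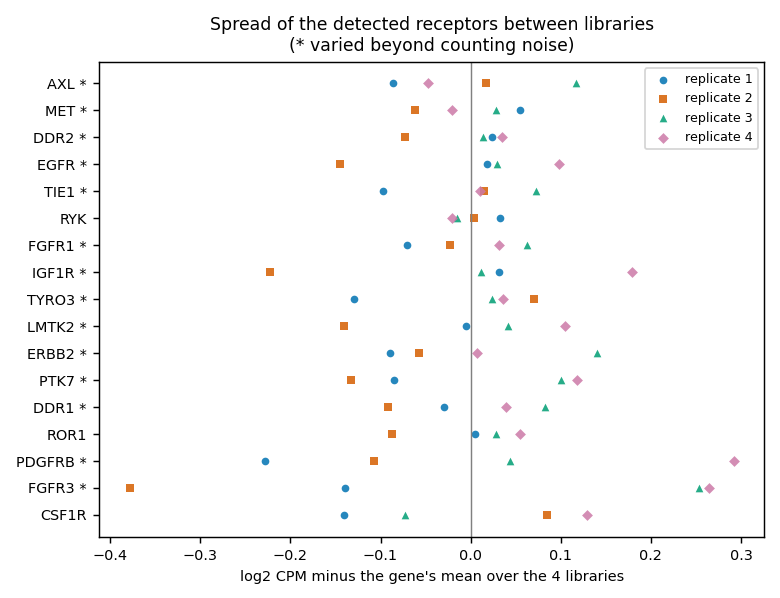
Deviation of log2 CPM from the gene's own mean for the 17 detected receptors in the 4 knockout libraries, from the highest to the lowest level per kilobase downwards. AXL spans a range of 1.15 times and FGFR3 1.56 times.

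Most adaptors and attenuators of receptor signalling were detected. Of 23 adaptor genes, 19 were detected and 17 of 21 tested varied, with a median of 5.68 CPM per kilobase, beside 58.7% detected, 64.4% varied and a median of 1.41 over protein-coding rows. PTPN11, the phosphatase SHP2, was highest in CPM per kilobase at 50.2 ± 2.03, followed by SHC1 at 47.2 ± 2.90, CRK at 27.4 ± 2.02 and CRKL at 21.4 ± 0.624. FRS3, an FGF receptor adaptor, had the largest SD of log2 CPM among the detected adaptors, at 3.55 ± 0.369 CPM, but did not exceed counting noise (chi-square, adjusted p = 0.247). Of 18 attenuators, 17 were detected and 9 of 18 tested varied, with a median of 9.63 CPM per kilobase. They were led in CPM per kilobase by ERRFI1, which blocks EGFR, at 68.2 ± 2.82, the phosphatase gene PTPRF at 53.8 ± 2.87, the ubiquitin ligase gene STUB1 at 36.6 ± 4.25 and PTPN1 at 21.2 ± 0.628. SPRY3 had the largest SD of log2 CPM among the detected attenuators, at 1.33 ± 0.297 CPM, and did not exceed counting noise either (chi-square, adjusted p = 0.0599). SPRY1, at 0.879 ± 0.222 CPM, was the one not detected. All 3 processing proteases were detected and varied, with the sheddases ADAM10 (163 ± 12.5 CPM, the largest SD of log2 CPM) and ADAM17 (93.4 ± 4.91 CPM) beside FURIN.

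Ligand and co-receptor genes were detected in part. Over protein-coding rows, 58.7% were detected, 64.4% of those tested varied and the median was 1.41 CPM per kilobase. Of 54 ligand genes, 27 were detected and 14 of 31 tested varied, with a median of 0.210 CPM per kilobase. AGRN, GAS6, VEGFB and VEGFC led them in CPM per kilobase, at 46.3 ± 2.99, 40.4 ± 1.92, 24.3 ± 2.61 and 23.2 ± 0.678. GDNF had the largest SD of log2 CPM among the detected ligands, with a range of 1.76 times. Of 10 co-receptor genes, 4 were detected (NRP1, NRP2, LRP4 and KLB), and 4 of 5 tested varied. KLB had the largest SD of log2 CPM of these but did not exceed counting noise (chi-square, adjusted p = 0.221).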

How the data were processed

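RNA was measured in 4 libraries of HT1080 cells with a KDAC8 knockout, the only group. Per the labels, ribosomal RNA was removed from total RNA before sequencing. The authors' deposited values are expected counts, 1 row a gene, read as such from values that are partly not whole (10.6% to 11.9% of cells). Per the submitters' processing notes, RSEM 1.3.3, Bowtie2 2.5.4, DESeq2 1.46.0 and Trimmomatic 0.39 were used with GRCh38. For their roles, the annotation release and the strand setting, the answer is: not given in the sources used here. Expected counts divide reads among similar rows: 7 members had a value that was not whole in at least 1 library (EGFR, ERBB2, PTK7, MST1R, AXL, TYRO3 and TIE1).

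Expected counts were rounded. CPM used TMM effective library sizes (edgeR 4.0.16). Exonic lengths came from GENCODE release 29, which held 94.0% of the gene IDs. Variation was tested on genes averaging at least 10 counts (chi-square, 3 degrees of freedom, adjusted p under 0.05). The test was first checked on simulated counts that held counting noise and planted changes only. That check therefore does not cover spread between libraries beyond counting noise. SDs of log2 CPM used a pseudocount of 0.01 CPM. Every pair of libraries differed beyond counting noise in at least 4175 genes, so no column repeats another. This does not tell separate cultures from several libraries of the same culture. Of 54 ligands, 10 co-receptors, 23 adaptors, 18 attenuators, 3 proteases and 33 cell type markers, all were matched. Beyond the members, the 4 highest and the most variable gene of each list and the cognate ligands were to be named; others were chosen after their values were seen. Members and lists were chosen with earlier results of these data known. Columns left unused numbered 0.

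Intervals and floors cover counting error only. Alternatives were DESeq2 1.42.0 size factors, total counts, protein-coding rows, other lengths, thresholds and filters, and leaving out each library.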

Additional observations from a re-analysis of the deposited data

Results flagged for a closer look

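Of 125 values screened over members, listed genes and sums, 4 had 1 library far from the other 3, with a gap to the nearest library over the whole range above Dixon's critical value. Chance gives about 1 in 20 such values. None was a member. ANGPT2 (gap over range 0.903) had 2.22 CPM in replicate 4 against 0.519 to 0.684 CPM in the others. CRKL (0.906) was low in replicate 2, at 109 CPM beside 114.2 ± 3.32 CPM over the 4 libraries. CD44 (0.889), a mesenchymal marker, was also low in replicate 2, at 1432 CPM. CD34 (0.885), a haematopoietic marker, was high in replicate 4, at 0.733 CPM.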

How the results depend on the processing

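No paired analysis was possible because the samples form 1 group. The count of detected members was 17 under each of the 3 other normalizations and 14, 18 and 21 with 1 CPM per kilobase, a mean of 1 CPM and 0.5 CPM as the threshold. Leaving out 1 library gave 17 to 18, the extra gene being KIT without replicate 2. The 15 varied members became 15 to 16 under the other normalizations (RYK was added with total counts), 17 with no filter, 2 with a range of 1.5 times as well and 0 with the common dispersion. Leaving out 1 library gave 11 to 14: FGFR1, PDGFRB, TIE1 and TYRO3 were lost without replicate 1, DDR1, DDR2, FGFR3, KIT and LMTK2 without replicate 2, DDR1, ERBB2 and FGFR1 without replicate 3, and KIT and PDGFRB without replicate 4. Gained were INSR (without replicate 1 or 4), RET (without 1 or 3) and RYK (without 2 or 3), and ERBB3 and RET with no filter. The median level of the detected members, 4.69 CPM per kilobase, became 6.91 with the longest transcript and 17.1 with the longest coding length, chosen after seeing the data in place of a protein length, which was not used here; leaving out 1 library gave 4.62 to 4.80. The summed level of 411 CPM per kilobase became 484 and 982 with these lengths, and 2829 as CPM without a length; leaving out 1 library gave 404 to 418. Of the 15 pairs, 14 had 1 sign in every library under each length, and 14 to 15 with 1 library left out, but not the same 14: with the longest transcript FGFR3 over FGFR4 differed in sign between libraries and KIT over CSF1R did not. KIT over CSF1R changed sign, to -0.26 with the longest transcript, and with 1 library left out ranged from -0.083 (without replicate 4) to 0.20 (without replicate 2), with -0.045 and -0.063 without replicates 1 and 3.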
